A study of Macaca fascicularis with 16 samples.

Results

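Potassium channel genes were compared along the aorta of the cynomolgus monkey (Macaca fascicularis), a laboratory primate, from RNA sequencing counts. The animals were normal and young, every library is labelled as baseline, and no treatment or genetic change is named. Ascending and descending thoracic aorta and suprarenal and infrarenal abdominal aorta each gave 4 of the 16 libraries, numbered here as in the labels, which do not say whether tissue was pooled. A gene was taken when its symbol began with KCN, the prefix of pore-forming and auxiliary subunits of potassium channels, and when at least 4 libraries held at least 10 counts. Of 93 KCN genes among the 32846 rows of the table, 54 met this rule and 39 did not, 4 of which had no count. All 54 were among the 15926 genes tested.

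Potassium channels let potassium leave the cell, which moves the membrane voltage of smooth muscle away from the range where voltage-gated calcium channels open, so that more open potassium channels favour relaxation. Voltage-gated (Kv) channels are built from pore subunits that can bind cytoplasmic beta subunits and single-span KCNE subunits. Calcium-activated channels of large conductance (BK) answer local calcium release, inward rectifiers of the ATP-sensitive type (KATP) answer the metabolic state, and two-pore-domain channels carry much of the background current. Which subunits a vessel makes is known to vary along the arterial tree.

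Levels below are CPM, counts scaled to a common library size, after adjustment by trimmed mean of M-values (TMM) factors. They are not divided by transcript length, so levels are compared between libraries and never between genes. Tests are quasi-likelihood F tests of edgeR in one fit of all libraries, with Benjamini-Hochberg adjusted p-values (adjusted p) over all 15926 genes, and a gene is said to pass, rise or fall at an adjusted p under 0.05. A slope is the log2 change per step along the order ascending, descending, suprarenal, infrarenal. Library totals ran from 14402824 to 21407514 counts, of which the 54 genes held 0.0722% to 0.13%. Nothing in the labels ties a library to its own animal, and the p-values therefore reflect only how far these libraries spread, which may be technical.

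In cell type markers, 3 libraries differed from the rest of their region in the sum of contractile genes. The summed CPM of 9 contractile smooth muscle genes, among them MYH11 and ACTA2, was 57200 in infrarenal library 1 and 22000 to 30900 in the other infrarenal libraries. It was 17700 in ascending library 4 and 13600 in suprarenal library 3, against 25700 to 36300 in the other ascending, descending and suprarenal libraries. The contractile genes did not move as one in infrarenal library 1. TAGLN (22900 against 5750 to 10100 in the other infrarenal libraries), ACTA2 (18600 against 5750 to 6890), CNN1, SMTN and DES were above the others. MYH11 (6710 against 5680 to 7580) and LMOD1 lay within their range. SYNPO2 (88.1 against 202 to 430) and MYOCD (13.3 against 67.5 to 165) were below them. The sum of 9 endothelial genes was 1870 in ascending library 4, 3260 in suprarenal library 3 and 2650 in infrarenal library 3, against 468 to 1230 in the other 13. No gene of these lists was at 0 in a whole region, so the labelled tissue carried its defining markers in every region. In bulk tissue, fewer cells of a type and less RNA per cell cannot be told apart.

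Differences of potassium channel genes that passed lay between the infrarenal aorta and the thoracic regions, in both directions. For infrarenal against suprarenal, 0 of 54 genes passed, against 0.201% of all genes. Genes that passed the test of any difference among the 4 regions numbered 11 of 54 (20.4%), where 322 of all 15926 genes (2.02%) passed. Among them were KCNAB1, KCNA5, KCNT2, KCNA2, KCNB2 and KCNE2, each highest in the infrarenal aorta, and KCNJ15, KCNAB2, KCNG1 and KCNE1, each lowest there. Of the latter, KCNAB2 and KCNG1 passed against the ascending but not the descending aorta, and KCNJ15 had its highest mean in the descending aorta. When ascending library 4, suprarenal library 3 and infrarenal library 1 were all left out, a choice made after the data were seen, 18 of the 54 passed, including all 11, while the share of all genes rose to 7.08%. The map of centred levels shows KCNAB1, KCNT2, KCNA2, KCNA5 and KCNB2 as red and KCNJ15 and KCNE1 as blue in all 4 infrarenal columns. KCNAB2 is pale there, KCNE2 is uneven, and KCNG1 departs most in the ascending columns. Most other rows are pale or patchy across libraries.

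**Figure D1:**
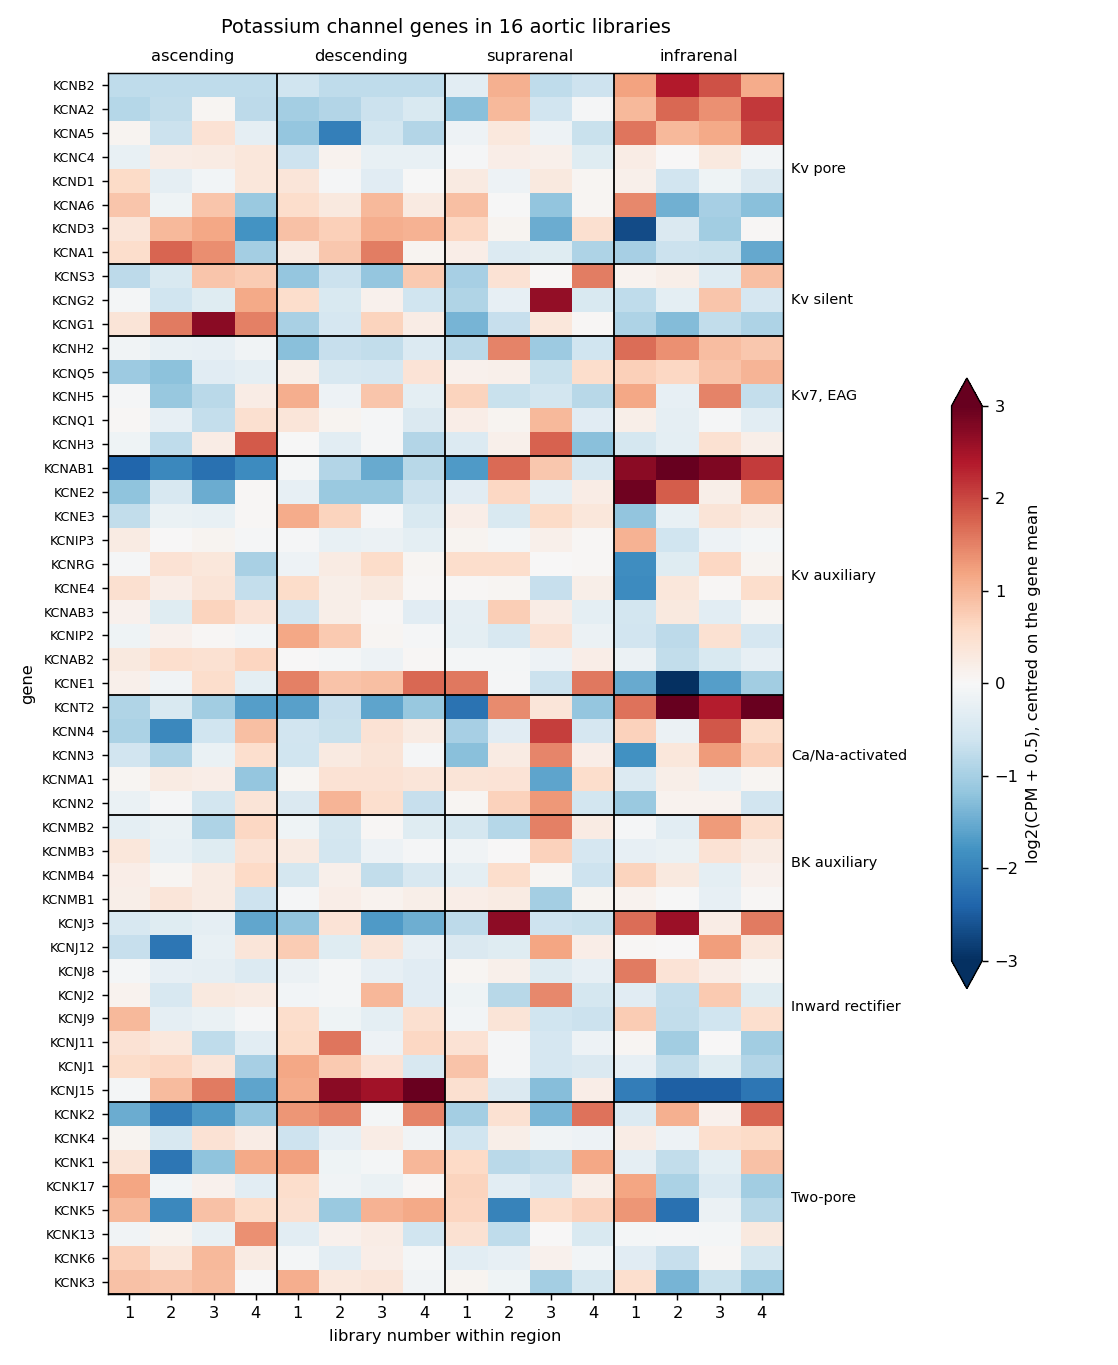
Levels of 51 potassium channel genes in 16 aortic libraries as log2(CPM + 0.5) centred on each gene's mean (colour, with values beyond 3 in either direction drawn in the end colours), genes in rows by class and libraries in columns by region. KCNAB1, KCNT2, KCNA2, KCNA5 and KCNB2 are red and KCNJ15 and KCNE1 are blue in all 4 infrarenal columns. KCNAB1, KCNT2, KCNA2, KCNB2, KCNH2 and KCNJ3 are also red in suprarenal library 2.

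Among pore subunits of the Kv1, Kv2, Kv3 and Kv4 families, 3 of 10 passed in the test of any difference, and all 3 were highest in the infrarenal aorta. KCNA5 (GeneID 102127862), a Kv1 pore subunit of vascular smooth muscle, had 30.9, 18.4, 39.2 and 23.8 CPM in the ascending libraries and 12.7, 6.62, 19.7 and 15.6 in the descending ones. It had 26.2, 36.1, 26.0 and 18.1 CPM in the suprarenal and 89.3, 57.2, 64.1 and 115 in the infrarenal libraries. Every infrarenal library was above all other libraries, and the descending aorta had the lowest mean, 13.7 ± 5.5 CPM (SD, n = 4), so the levels did not climb evenly along the vessel. KCNA5 rose from descending to infrarenal by 2.57 on the log2 scale (SE 0.34, edgeR adjusted p = 0.00155) and from ascending to infrarenal by 1.54 (SE 0.33, adjusted p = 0.0153). The latter call was lost without ascending library 2 (adjusted p = 0.062) or infrarenal library 4 (adjusted p = 0.0549), in a range of 0.00832 to 0.062 over the fits that left out 1 library. The infrarenal to suprarenal difference was 1.61 (SE 0.33, adjusted p = 0.0618) and did not pass, although those libraries did not overlap.

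KCNA2 (GeneID 101867024), another Kv1 pore subunit, had 2.32, 2.59, 4.84 and 2.47 CPM in the ascending, 2.02, 2.29, 2.79 and 3.27 in the descending, 1.67, 9.57, 2.98 and 4.55 in the suprarenal and 9.56, 16.6, 12.8 and 21.9 in the infrarenal libraries. Infrarenal libraries were all above the ascending and descending ones, and the lowest of them was level with suprarenal library 2. Its infrarenal to descending rise was 2.55 on the log2 scale (edgeR adjusted p = 0.00857) and its infrarenal to ascending rise 2.31 (SE 0.46, adjusted p = 0.00903). KCNB2 (GeneID 102140970), a Kv2 pore subunit, was counted 0 times in the ascending libraries, 1 time in the descending, 31 times in the suprarenal and 150 times in the infrarenal libraries. Infrarenal levels of 1.47, 3.97, 2.69 and 1.36 CPM were above those of every other library, of which suprarenal library 2 was highest at 1.29. Against a floor of 3 counts over the ascending group, its infrarenal level was at least 52.2-fold higher and its suprarenal level at least 9.66-fold higher, and the ratio of infrarenal to descending counts was 162 with an exact 95% interval of 28.6 to 6440. These bounds allow for counting error alone, and the suprarenal one rests on suprarenal library 2, which held 27 of the 31 suprarenal counts. The edgeR adjusted p of KCNB2 for infrarenal against descending was 0.0246, and the call was lost without any 1 of the 4 descending libraries or infrarenal library 2 (0.0709 to 0.1, in a range of 0.00517 to 0.1). KCNB2 met the rule of 10 counts through the 4 infrarenal libraries and suprarenal library 2, so its listing and its difference between regions are not independent.

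The remaining 7 Kv pore genes of these families did not pass in the test of any difference. KCNA6 and KCNA1 are Kv1 pore subunits that lie next to each other in the annotation, with KCNA5 nearby. KCNA1 had 1.82, 4.94, 3.75 and 0.302 CPM in the ascending, 1.47, 2.35, 4.18 and 1.22 in the descending, 0.354 to 1.36 in the suprarenal and 0.0566 to 0.542 in the infrarenal libraries. Its levels stepped down in that order, and its slope fell by 1.02 on the log2 scale per region (SE 0.24, edgeR adjusted p = 0.0264). That call was lost in 5 of the 16 fits that left out 1 library, which were those without ascending library 2 (adjusted p = 0.0906) or 3 (0.0703) or infrarenal library 2 (0.0561), 3 (0.05) or 4 (0.0704), in a range of 0.00514 to 0.0906, and with limma voom (0.148). KCNA6 had 32.7, 45.0 and 37.7 CPM in infrarenal libraries 2 to 4, and 248 in infrarenal library 1, where the 12 libraries of other regions had 39.5 to 179. Infrarenal libraries 2 and 4 were below every library of the other regions, infrarenal library 3 was above ascending library 4 (41.3) and suprarenal library 3 (39.5), and infrarenal library 1 was above every other library. Over all libraries its infrarenal to ascending difference was -0.29 (adjusted p = 0.926), and it was -1.81 (adjusted p = 0.0028) without the 3 libraries named above, against adjusted p-values of 0.075 to 0.996 with 1 library left out. That fit left out infrarenal library 1, the highest in KCNA6, and ascending library 4 and suprarenal library 3, which were low in it. The fall of KCNA6 therefore cannot be separated from the choice of libraries. The Kv3 pore KCNC4 had an infrarenal to ascending interval of -0.57 to 0.46 and the Kv4 pore KCND3 one of -3.28 to 0.25. KCND1, another Kv4 pore subunit, had 14.9 to 33.6 CPM in all libraries, with an infrarenal to ascending difference of -0.41 (95% interval -0.89 to 0.06, adjusted p = 0.508).

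**Figure D2:**
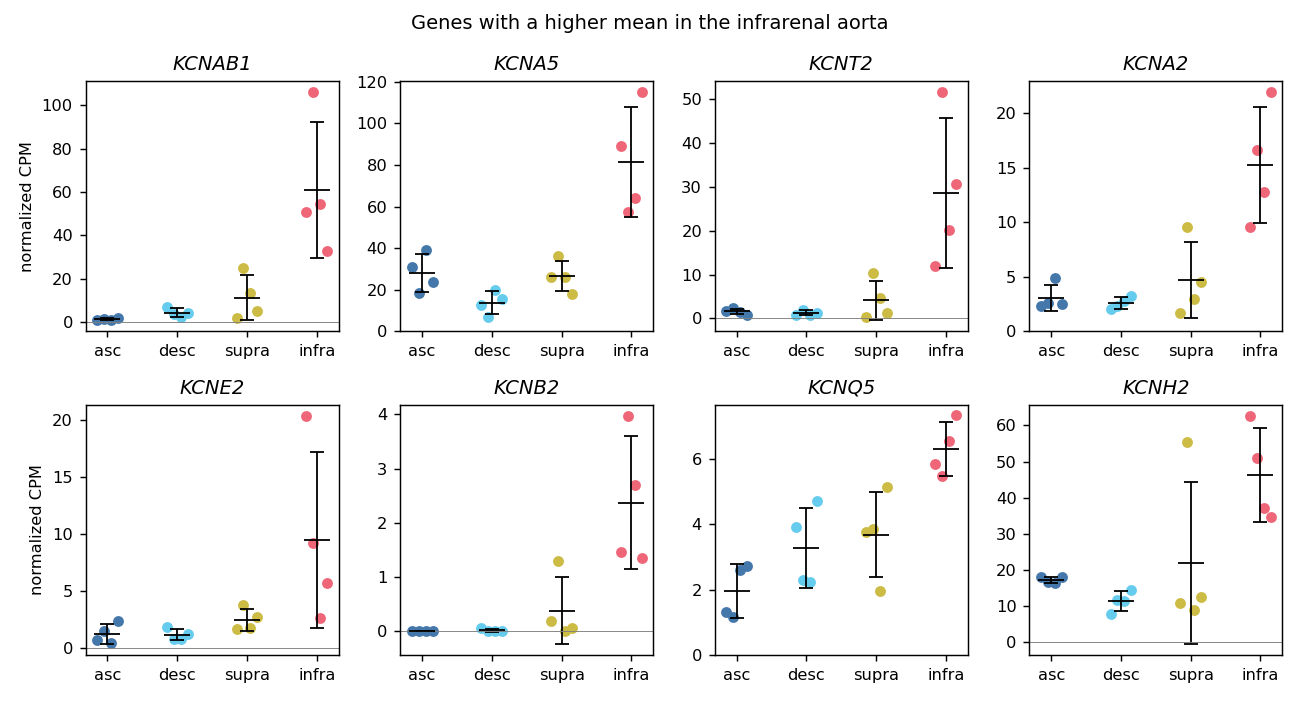
Normalized CPM (vertical axes, each from its own scale) of 8 potassium channel genes in the ascending, descending, suprarenal and infrarenal aorta. Points are libraries, horizontal lines the means and bars 1 SD, n = 4. All 4 infrarenal points lie above the other 12 for KCNAB1, KCNA5, KCNT2, KCNB2 and KCNQ5, whereas for KCNA2, KCNE2 and KCNH2 at least 1 suprarenal point reaches the infrarenal range.

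The cytoplasmic beta subunits of Kv1 channels went opposite ways. These proteins bind the pore from inside, and the one encoded by KCNAB1 is known to speed inactivation. KCNAB1 (GeneID 101866714) had 1.0, 1.54, 1.15 and 1.63 CPM in the ascending libraries, 7.03, 3.79, 2.24 and 3.93 in the descending, 1.92, 24.9, 13.2 and 5.08 in the suprarenal and 50.9, 106, 54.3 and 33.0 in the infrarenal libraries. Ascending libraries were below all others, infrarenal libraries above all others, and the suprarenal libraries spread from below every descending value to near the lowest infrarenal one. KCNAB1 rose by 5.51 on the log2 scale from ascending to infrarenal (SE 0.70, 45.6-fold, edgeR adjusted p = 0.00036), by 3.84 from descending to infrarenal (SE 0.63, adjusted p = 0.00494) and by 1.79 per region (SE 0.22, adjusted p = 0.000226). Neighbours in this order did not pass, with adjusted p-values of 0.578 for descending against ascending, 1 for suprarenal against descending and 0.149 for infrarenal against suprarenal. The last of these passed without suprarenal library 2 (adjusted p = 0.0391, in a range of 0.0391 to 0.492), and the suprarenal to ascending difference of 3.08 (adjusted p = 0.0708) passed without suprarenal library 1 (adjusted p = 0.0119, in a range of 0.0119 to 0.247).

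KCNAB2 (GeneID 102115825), whose product shares the beta subunit fold, had 29.8, 34.5, 33.5 and 38.0 CPM in the ascending, 24.3, 23.1, 21.7 and 24.8 in the descending, 23.4, 23.3, 21.8 and 27.8 in the suprarenal and 21.6, 14.3, 17.6 and 20.3 in the infrarenal libraries. Ascending libraries were above all others and infrarenal libraries below all others, by a narrow margin in the last case. KCNAB2 fell by 0.88 on the log2 scale from ascending to infrarenal (SE 0.15, edgeR adjusted p = 0.00325). Its call for any difference (adjusted p = 0.0177) was lost without ascending library 2, 3 or 4 or infrarenal library 3, with adjusted p-values of 0.067, 0.0577, 0.0552 and 0.0532, in a range of 0.00954 to 0.067. KCNAB3 had 0.305 to 1.48 CPM in all libraries and did not pass (adjusted p for any difference = 0.934). As a log2 ratio of counts within a library, each count increased by 0.5, KCNAB1 to KCNAB2 was -4.85 to -4.46 in the ascending, -3.26 to -1.79 in the descending, -3.59 to 0.09 in the suprarenal and 0.70 to 2.89 in the infrarenal libraries. The ratio is a description of the values that were tested above and adds no test. KCNAB1 overlaps other genes of the annotation, and the sources used here do not say whether strand was used in counting, so reads from such partners cannot be told apart.

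The smallest auxiliary subunits, the KCNE family, also split. KCNE2 (GeneID 102122390), which modifies several Kv pores, had 0.484 to 2.35 CPM in the ascending, 0.783 to 1.83 in the descending and 1.67 to 3.73 in the suprarenal libraries, and 20.3, 9.21, 2.62 and 5.66 in the infrarenal ones. Infrarenal libraries were all above the thoracic ones, while infrarenal library 3 lay below suprarenal libraries 2 and 4. KCNE2 rose by 2.90 on the log2 scale from ascending to infrarenal (SE 0.62, edgeR adjusted p = 0.014) and by 3.0 from descending to infrarenal (adjusted p = 0.0207). Its call for any difference (adjusted p = 0.0147) was lost without infrarenal library 1 (0.0569, in a range of 0.00689 to 0.0569) and with limma voom (0.117), its infrarenal to ascending call without ascending library 1 (0.0551, in a range of 0.00717 to 0.0551), and its infrarenal to descending call without descending library 2, 3 or 4 or infrarenal library 1 (0.0514 to 0.0864) and with limma voom (0.065). KCNE2 overlaps MRPS6 and SLC5A3, among others, in the annotation, so its counts are uncertain in the same way.

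KCNE1 (GeneID 102118803), the partner of KCNQ1 in the slow delayed rectifier of the heart, was lowest in the infrarenal aorta. It had 14.5, 11.9, 18.7 and 10.4 CPM in the ascending, 38.0, 23.9, 24.6 and 43.5 in the descending, 40.0, 12.6, 8.06 and 39.7 in the suprarenal and 4.24, 0.662, 3.74 and 6.0 in the infrarenal libraries. Infrarenal libraries were below all others, and the suprarenal libraries formed a high pair, libraries 1 and 4, and a low pair, libraries 2 and 3. KCNE1 fell by 3.15 on the log2 scale from descending to infrarenal (SE 0.58, edgeR adjusted p = 0.00965), and its suprarenal to infrarenal difference did not pass (-2.77, adjusted p = 0.0618). The call for any difference (adjusted p = 0.03) was lost without ascending library 1 or 2, descending library 1 or 4, or infrarenal library 1 or 3 (0.0543, 0.0578, 0.0605, 0.0643, 0.0574 and 0.0882, in a range of 0.0116 to 0.0882). KCNE4, a KCNE subunit described with Kv7 channels in arteries, had 2.16 CPM in infrarenal library 1 and 5.49 to 13.8 in the others, with an infrarenal to ascending difference of -0.17 (95% interval -1.05 to 0.71). The calcium-binding KCNIP3, described as a partner of Kv4 pores, had 48.1 CPM in infrarenal library 1 and 15.1 to 27.6 in the other 15, with a difference of 0.12 (95% interval -0.44 to 0.67) and an adjusted p for any difference of 0.939. KCNIP2, KCNE3 and KCNRG, the rest of the auxiliary class, had intervals of -1.02 to 0.47, -1.28 to 1.98 and -1.30 to 0.90.

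Silent Kv subunits form no channel alone and join Kv2 pores. Of 3 such genes, KCNG1 (GeneID 102135913) passed, with 1.88, 4.88, 11.4 and 4.71 CPM in the ascending, 0.428, 0.783, 2.37 and 1.61 in the descending, 0.186, 0.622, 1.78 and 1.36 in the suprarenal and 0.463, 0.241, 0.59 and 0.453 in the infrarenal libraries. Ascending libraries were high, except that library 1 lay below descending library 3, and infrarenal libraries were low with little spread. KCNG1 fell by 3.70 on the log2 scale from ascending to infrarenal (SE 0.73, edgeR adjusted p = 0.00877). Its call for any difference (adjusted p = 0.0199) was lost without ascending library 3 (0.125), infrarenal library 2 (0.0584) or infrarenal library 4 (0.0531), in a range of 0.0141 to 0.125, and with limma voom (0.103). KCNS3 had 0.607 to 6.61 CPM and KCNG2 0.309 to 8.82 over all libraries, and both had wide intervals for infrarenal against ascending (-1.47 to 1.51 and -2.34 to 1.65 on the log2 scale).

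Kv7 pores open at voltages near rest and are drug targets in smooth muscle. KCNQ5 (GeneID 102138489) had 1.32, 1.17, 2.6 and 2.72 CPM in the ascending, 3.91, 2.29, 2.24 and 4.71 in the descending, 3.77, 3.87, 1.97 and 5.14 in the suprarenal and 5.86, 5.48, 6.55 and 7.36 in the infrarenal libraries. Infrarenal libraries were above all others and the middle regions overlapped each other. KCNQ5 rose by 1.69 on the log2 scale from ascending to infrarenal (SE 0.37, edgeR adjusted p = 0.0177) and by 0.52 per region (SE 0.12, adjusted p = 0.0187), but had an adjusted p of 0.102 for any difference. Its infrarenal to ascending call was lost without ascending library 1 (0.0665) or 2 (0.0699) or infrarenal library 4 (0.0517), in a range of 0.0109 to 0.0699, and its slope without the same libraries (0.0658, 0.0674 and 0.0507, in a range of 0.00934 to 0.0674). KCNQ1, the Kv7 pore of heart and epithelia, had 1.94 to 7.3 CPM in all libraries, with an infrarenal to ascending difference of -0.06 (95% interval -0.82 to 0.69). KCNQ5 overlaps another gene of the annotation, as do KCNQ1 and KCNH3.

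KCNH2 (GeneID 102142329), the pore of the rapid delayed rectifier of the heart, depended strongly on suprarenal library 2. It had 18.0, 16.5, 16.2 and 17.9 CPM in the ascending, 7.82, 11.7, 11.3 and 14.4 in the descending, 10.9, 55.4, 8.82 and 12.5 in the suprarenal and 62.6, 51.0, 37.2 and 34.5 in the infrarenal libraries. Suprarenal library 2 lay within the infrarenal range, and the other 3 suprarenal libraries lay below every ascending one. KCNH2 rose by 2.03 on the log2 scale from descending to infrarenal (SE 0.47, edgeR adjusted p = 0.039), a call lost in 11 of the 16 fits without 1 library, which were all those without an ascending library other than 4, a descending library or an infrarenal library (up to 0.126). Without suprarenal library 2 its adjusted p for any difference was 0.000219, against 0.0941 with all libraries and 0.000219 to 0.254 over the fits without 1 library, and it then rose by 2.11 from suprarenal to infrarenal (adjusted p = 0.0033, in a range of 0.0033 to 1). Any difference also passed without suprarenal library 3 (adjusted p = 0.0478). KCNH3 and KCNH5, pores of the same ether-a-go-go group, had at most 9.23 and 2.56 CPM, with infrarenal to ascending intervals of -2.25 to 0.77 and -0.40 to 3.91.

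**Figure D3:**
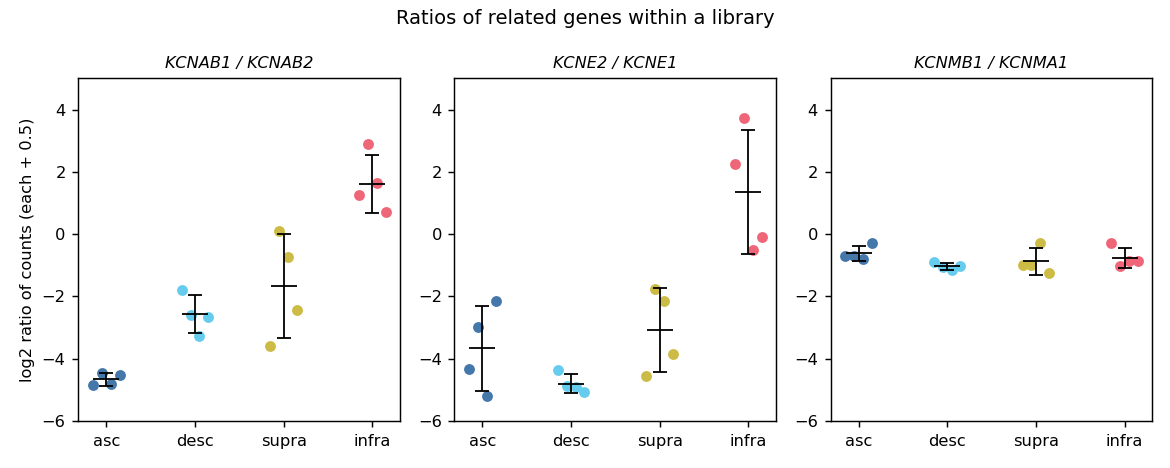
Log2 ratio of the counts of related genes within each library, each count increased by 0.5 (vertical axis), for KCNAB1 to KCNAB2, KCNE2 to KCNE1 and KCNMB1 to KCNMA1 in the 4 regions. Points are libraries, horizontal lines means and bars 1 SD, n = 4. In the first panels, those of KCNAB1 and KCNE2, every infrarenal point is above the other 12, and in the last panel all 16 points lie between -1.26 and -0.27.

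Suprarenal library 2 had the highest suprarenal level of KCNAB1, KCNA5, KCNT2, KCNA2, KCNB2, KCNE2 and KCNH2, and KCNQ5 was the exception among the genes drawn as higher in the infrarenal aorta. It also had 11.2 CPM of KCNJ3, a pore subunit of G protein-gated inward rectifiers, where the other suprarenal libraries had 0.557 to 0.698 and the infrarenal libraries 1.64 to 10.4. Its summed contractile smooth muscle markers, 33700 CPM, were the highest of the suprarenal libraries (13600 to 31100 in the others), and its endothelial sum of 822 CPM was within their range. P2RX1, which opens to extracellular ATP, had 111 CPM in it against 1.48 to 20.3 in the other suprarenal and 121 to 246 in the infrarenal libraries. What sets this library apart was not tested.

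Of the calcium- and sodium-activated channels, 1 of 5 passed. KCNT2 (GeneID 102132195), a sodium-activated pore, had 1.63, 2.41, 1.45 and 0.785 CPM in the ascending, 0.794, 1.99, 0.849 and 1.33 in the descending, 0.371, 10.3, 4.63 and 1.3 in the suprarenal and 12, 51.6, 20.1 and 30.7 in the infrarenal libraries. Infrarenal libraries were above all others, suprarenal libraries 2 and 3 came next, and the thoracic libraries overlapped one another. KCNT2 rose by 4.52 on the log2 scale from descending to infrarenal (SE 0.80, edgeR adjusted p = 0.00768) and by 4.18 from ascending to infrarenal (SE 0.79, 18.2-fold, adjusted p = 0.00652). The difference from the suprarenal aorta, 2.77, did not pass with all libraries (adjusted p = 0.218) and passed without suprarenal library 2 (adjusted p = 0.0476, in a range of 0.0476 to 0.623).

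KCNMA1 and KCNMB1, the BK channel genes of smooth muscle, did not pass in any comparison. KCNMA1, the pore, had 328, 373, 363 and 141 CPM in the ascending, 328, 425, 427 and 404 in the descending, 409, 419, 105 and 452 in the suprarenal and 236, 357, 277 and 330 in the infrarenal libraries. KCNMB1, the beta subunit that raises calcium sensitivity in smooth muscle, had 200, 228, 210 and 116 CPM in the ascending, 175, 203, 191 and 201 in the descending, 205, 212, 87.1 and 189 in the suprarenal and 193, 177, 151 and 183 in the infrarenal libraries. The regions overlapped for both, and both were lowest in ascending library 4 and suprarenal library 3, the libraries with the lowest contractile marker sums. From ascending to infrarenal, the difference of KCNMB1 was -0.10 (95% interval -0.62 to 0.42, edgeR adjusted p = 0.94) and that of KCNMA1 -0.00 (95% interval -0.78 to 0.77, adjusted p = 0.998), which leaves room for changes of up to these bounds. Their log2 ratio was -0.79 to -0.28 in the ascending, -1.16 to -0.91 in the descending, -1.26 to -0.27 in the suprarenal and -1.01 to -0.29 in the infrarenal libraries. Of 4 BK auxiliary genes, 0 passed for any difference by edgeR, DESeq2 or limma voom, and 0 had an unadjusted p under 0.05. KCNMB4, KCNMB3 and KCNMB2 had infrarenal to ascending intervals of -0.64 to 0.55, -0.88 to 0.88 and -0.89 to 2.86. KCNMB1 and KCNMB3 overlap other genes of the annotation.

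KCNN4, the calcium-activated channel of intermediate conductance known from endothelium, had 14 CPM in ascending library 4, 32.6 in suprarenal library 3 and 27.7 in infrarenal library 3, the libraries with the highest endothelial marker sums. In the other 13 it had 1.54 to 12. Its differences between regions did not pass (infrarenal to ascending 1.26, SE 0.74, edgeR adjusted p = 0.572), and it rose by 2.20 (adjusted p = 0.0203) without ascending library 4, suprarenal library 3 and infrarenal library 1, against adjusted p-values of 0.169 to 0.84 with 1 library left out. That fit left out ascending library 4 and suprarenal library 3, which were high in KCNN4, and kept infrarenal library 3, also high. Its rise therefore cannot be separated from the choice of libraries. The part of endothelial cells in the KCNN4 levels was not tested. KCNN2 and KCNN3, of small conductance, had at most 2.16 and 4.38 CPM in any library and did not pass.

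Inward rectifiers gave 1 of 8 genes that passed. KCNJ15 (GeneID 102124554), an inward rectifier known from epithelia, had 2.13, 4.81, 7.57 and 0.422 CPM in the ascending, 5.44, 17.6, 15.4 and 21.1 in the descending, 3.34, 1.53, 0.635 and 2.66 in the suprarenal and 0.154, 0, 0 and 0.113 in the infrarenal libraries. The infrarenal libraries held 4 counts in all and were below all others, and 3 of 4 descending libraries were above every other library. Its descending to infrarenal ratio of counts was 235 (exact 95% interval 91.6 to 865) and its ascending to infrarenal ratio 58.4 (22.5 to 216), intervals that cover counting error and not the spread between libraries. In the fit it fell by 7.69 on the log2 scale from descending to infrarenal (SE 1.03, edgeR adjusted p = 0.00155). From ascending to infrarenal it fell by 5.70 (adjusted p = 0.00417, and 0.00104 to 0.0204 with 1 library left out), a call lost with limma voom (adjusted p = 0.134), as was its slope (adjusted p = 0.00152, and 0.0625 with limma voom). The other differences did not pass, with an adjusted p of 0.523 for descending against ascending, 1 for suprarenal against descending and 0.063 for infrarenal against suprarenal.

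**Figure D4:**
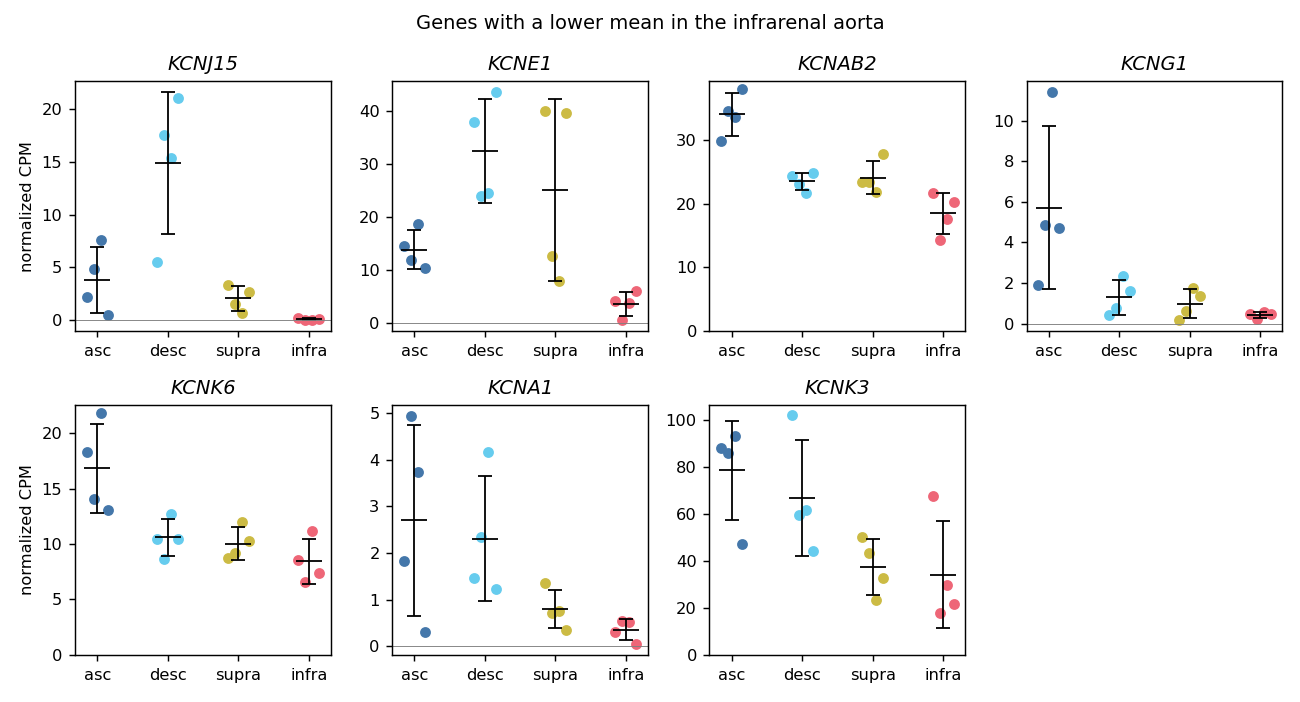
Normalized CPM (vertical axes, each from its own scale) of 7 potassium channel genes in the ascending, descending, suprarenal and infrarenal aorta. Points are libraries, horizontal lines the means and bars 1 SD, n = 4. All 4 infrarenal points lie below the other 12 for KCNJ15, KCNE1 and KCNAB2, while those of KCNG1, KCNK6 and KCNA1 overlap the neighbouring regions, and KCNK3, with infrarenal library 1 high at 67.6 CPM, did not pass.

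KCNJ8 (GeneID 102116494), the pore of vascular KATP channels, had 28.2 to 35.6 CPM in the ascending, 29.4 to 35.8 in the descending and 28.6 to 41.9 in the suprarenal libraries, and 111, 49.5, 43.2 and 39.2 in the infrarenal ones. Infrarenal library 1 stood far above the rest, and the lowest infrarenal library was within the suprarenal range. From ascending to infrarenal KCNJ8 differed by 0.94 (SE 0.27, edgeR adjusted p = 0.0704), which did not pass, and passed without infrarenal library 3 (0.0486) or 4 (0.0382), in a range of 0.0382 to 0.164. Its slope of 0.29 (adjusted p = 0.0698) was 0.15 (adjusted p = 0.0684) without infrarenal library 1, and passed without infrarenal library 3 (0.0492) or 4 (0.0388), in a range of 0.0388 to 0.162. ABCC9, its regulatory partner and its neighbour in the annotation, had 1.54 CPM in infrarenal library 1 and 42.7 to 68.3 in the other infrarenal libraries, with an adjusted p of 0.872 for any difference. Their log2 ratio of counts was 6.13 in infrarenal library 1 and -0.85 to 1.56 in the other 15 libraries. KCNJ11, the other KATP pore, had 0.0566 to 3.01 CPM and its partner ABCC8 1.27 to 7.27, and neither passed.

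KCNJ2, the classical inward rectifier of muscle, had 0.67 to 5.14 CPM, and KCNJ12, of the same branch, 1.54 to 21.3, and their adjusted p-values for any difference were 0.987 and 0.882. KCNJ12 has a close copy in some genomes, so its reads may be split. KCNJ9 and KCNJ3 are G protein-gated pores. KCNJ9, which overlaps other genes, had 3.91 to 14 CPM and an infrarenal to ascending interval of -0.98 to 0.80. KCNJ1, an epithelial rectifier that overlaps KCNJ5, had 0.121 to 2.26 CPM and an interval of -3.05 to 0.07. KCNJ3 had 0.121 to 1.03 CPM in the ascending libraries against 1.64 to 10.4 in the infrarenal ones without overlap, yet the difference of 2.94 (SE 1.11, adjusted p = 0.223) did not pass.

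The two-pore-domain channels gave 0 of 8 genes past the test of any difference by edgeR, where 3 had an unadjusted p under 0.05, DESeq2 called 2 and limma voom 0, and 3 passed without the 3 libraries named above. With a term for the library number added to the edgeR fit, 3 passed. KCNK3, an acid-sensitive background channel, had 88.1, 86.0, 93.1 and 47.2 CPM in the ascending, 102, 59.4, 61.6 and 44.4 in the descending, 50.3, 43.5, 23.2 and 32.9 in the suprarenal and 67.6, 17.9, 29.7 and 21.7 in the infrarenal libraries. Infrarenal library 1 was above every suprarenal library, and the other infrarenal libraries were below all thoracic ones. The slope of KCNK3 was -0.44 (SE 0.12, edgeR adjusted p = 0.0632), and without infrarenal library 1 it fell by 0.61 per region (adjusted p = 0.00375, in a range of 0.00375 to 0.17). The slope also passed without ascending library 4 (0.0374), with DESeq2 (0.0159) and with limma voom (0.0274). KCNK6 (GeneID 102115864), a background channel described in vascular muscle, had 18.3, 14.1, 21.8 and 13.1 CPM in the ascending, 8.67 to 12.7 in the descending, 8.72 to 12 in the suprarenal and 6.56 to 11.2 in the infrarenal libraries. Ascending libraries were above all others, and the other 3 regions overlapped. KCNK6 fell by 1.00 on the log2 scale from ascending to infrarenal (SE 0.22, adjusted p = 0.0184), a call lost without ascending library 1 (0.0593) or 3 (0.0728) or infrarenal library 2 (0.0714) or 4 (0.064), in a range of 0.0134 to 0.0728.

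KCNK2 (GeneID 102146456), a stretch-sensitive channel, had its lowest mean in the ascending aorta. It had 0.439, 0.123, 0.303 and 0.664 CPM there, 6.05, 6.8, 2.0 and 6.82 in the descending, 0.804, 3.11, 0.508 and 7.56 in the suprarenal and 1.47, 5.0, 2.36 and 8.32 in the infrarenal libraries. Descending and infrarenal libraries were all above the ascending ones, and suprarenal library 3 lay within the ascending range. KCNK2 rose by 3.47 on the log2 scale from ascending to infrarenal (SE 0.84, edgeR adjusted p = 0.0308), a call lost without ascending library 1 (0.0853), 2 (0.108) or 3 (0.1) or infrarenal library 2 (0.071) or 4 (0.0958), in a range of 0.0167 to 0.108, and with limma voom (0.124). The descending to ascending difference was 3.80 (SE 0.85, adjusted p = 0.12), and did not pass. KCNK5 and KCNK17, alkaline-activated channels that are neighbours in the annotation, had 2.23 to 31.9 and 25.4 to 119 CPM over all libraries. Their regions overlapped, with adjusted p-values of 0.984 and 0.983 for any difference. KCNK1, KCNK4 and KCNK13, the rest of this class, had at most 5.5 CPM in KCNK1 and 0.905 in KCNK4, and none of the 3 passed in any comparison.

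Counted by comparison, the changes lay between the infrarenal aorta and the thoracic aorta. For the slope, 13 of 54 genes passed, 7 higher and 6 lower toward the infrarenal end, against 3.72% of all genes (1.53% higher and 2.19% lower). The slope was above 0 in 25 genes and below 0 in 29, with a median of -0.04 against 0.02 over all genes. For infrarenal against ascending, 13 passed, 8 higher and 5 lower, against 3.49% of all genes (1.43% and 2.06%), with a median difference of -0.09 against 0.05 over all genes. Infrarenal against descending had 10, of which 7 were higher and 3 lower, against 1.65% of all genes (0.634% and 1.02%). Without the 3 libraries named above these counts were 21, 20 and 13, and included every gene counted with all libraries, at 11.6%, 13.2% and 4.1% of all genes. In that fit markers of other cells were called too: 8 of 9 endothelial genes for the slope and for infrarenal against ascending (0 with all libraries), 7 of 7 pericyte and mural genes for the slope (3 with all libraries), and 4 of 8 adipocyte and 4 of 7 fibroblast genes for infrarenal against ascending (0 with all libraries). Their part in the added channel calls was not tested. The background also turned on single libraries. Calls over all genes for infrarenal against ascending went from 556 to 1001 (6.18%) without infrarenal library 1, to 345 (2.13%) without infrarenal library 2, and to 348 and 359 without ascending library 1 or 2. For the slope they went from 592 to 953 without infrarenal library 1 and 391 without infrarenal library 2. For infrarenal against descending they went from 263 to 132, 154 and 161 without descending library 2, 3 or 4 and to 152 without infrarenal library 2. All 3 comparisons use the infrarenal libraries, so their counts are not independent of each other.

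**Figure D5:**
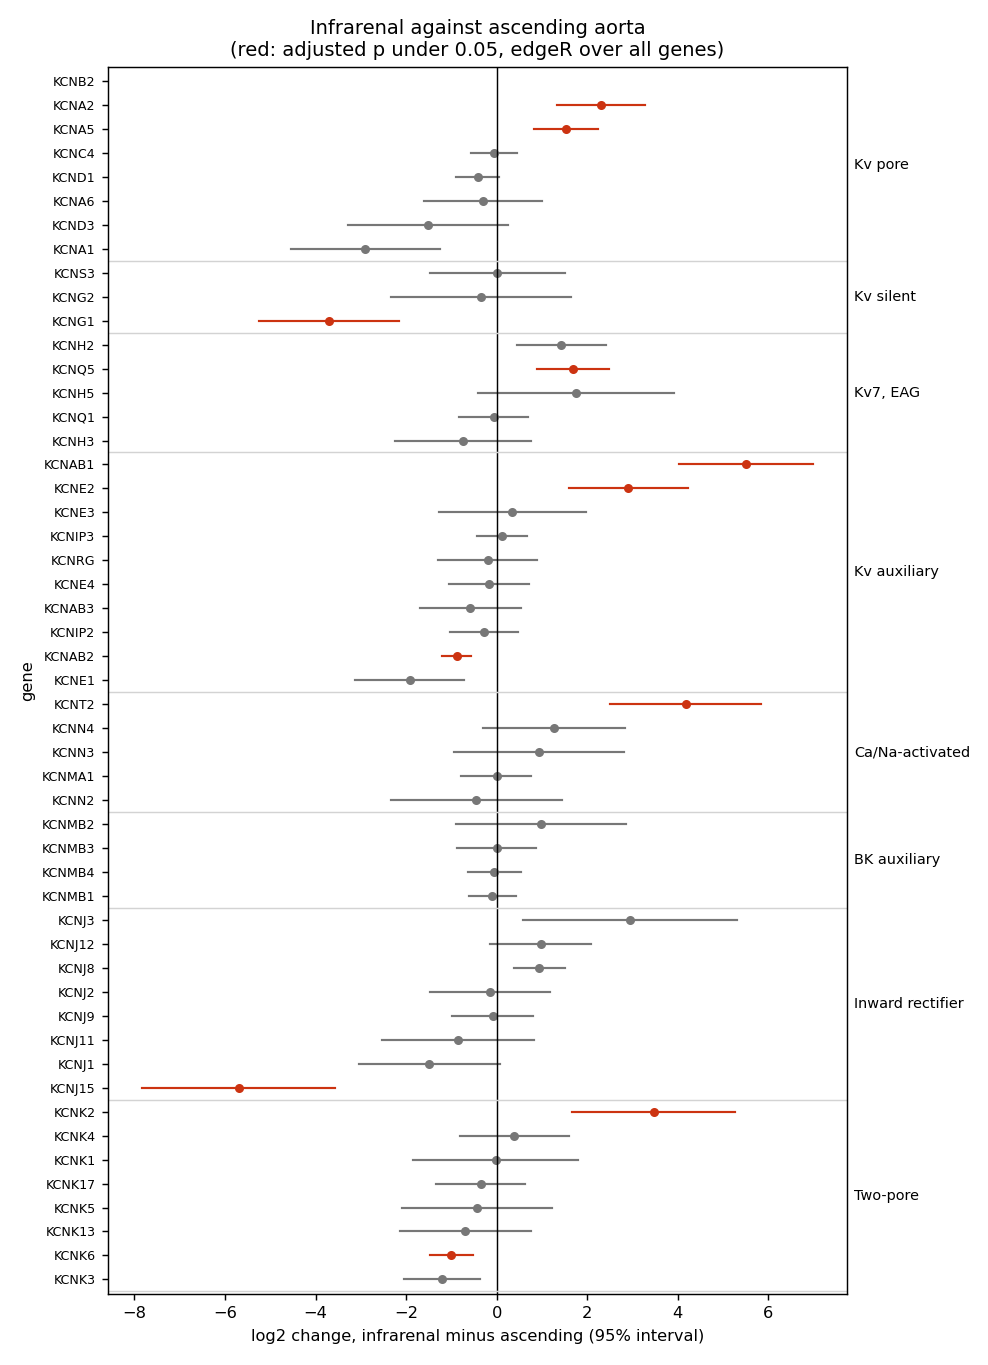
Log2 change from ascending to infrarenal aorta (horizontal axis) of 50 of the potassium channel genes, as the fitted value (point) and its 95% interval (line), by class. KCNB2 is not drawn because it had no count in the ascending aorta. Genes with an edgeR adjusted p under 0.05 over all genes are red, from KCNAB1 at 5.51 to KCNJ15 at -5.70, and the intervals of most others include 0.

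The remaining pairs gave 0 genes by edgeR. For infrarenal against suprarenal this compares with 0.201% of all genes (0.0188% higher and 0.182% lower), 13 members and 918 of all 15926 genes had an unadjusted p under 0.05, DESeq2 called 7 (1.05% of all genes) and limma voom 0. Descending against ascending stood at 0.113% of all genes (0.0879% higher and 0.0251% lower), with 9 members and 1074 of all genes at an unadjusted p under 0.05, 2 members called by DESeq2 (1.12% of all genes) and 0 by limma voom. In suprarenal against ascending, 0.257% of all genes passed (0.17% higher and 0.0879% lower), 10 members and 876 of all genes had an unadjusted p under 0.05, DESeq2 called 3 (1.16% of all genes) and limma voom 0. Suprarenal against descending had 0.0% of all genes, 7 members at an unadjusted p under 0.05, and 0 called by DESeq2 or limma voom. At an unadjusted p under 0.05, 264 of all genes stood in the last of these pairs.

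The number of genes whose infrarenal libraries were all above the other 12 libraries was 5 of 54, namely KCNA5, KCNAB1, KCNB2, KCNQ5 and KCNT2, against 0.471% of all genes. Those below numbered 4, among them KCNAB2, KCNE1 and KCNJ15, against 0.904%. KCNB2 met the count rule only through the 4 infrarenal libraries and suprarenal library 2. Its place among the genes above, and in the earlier counts of genes that passed, is therefore not independent of that rule. By class, genes past the test of any difference were 3 of 10 Kv pore, 1 of 3 silent, 4 of 10 Kv auxiliary, 1 of 5 calcium- and sodium-activated, 0 of 4 BK auxiliary, 1 of 8 inward rectifier and 0 of 8 two-pore-domain genes. These counts are small and the classes were not tested against each other.

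Partners of these channels outside the KCN symbols, such as sulfonylurea receptors, LRRC26 and sodium pump subunits, had 1 of 13 tested genes past the test of any difference. It was ATP1B1, a beta subunit of the sodium pump, with 65.8 to 121 CPM in the ascending, 63.0 to 65.9 in the descending, 27.1 to 55.2 in the suprarenal and 9.02 to 20.4 in the infrarenal libraries. It stepped down along the vessel without overlap except between the ascending and descending libraries, and it fell by 2.89 on the log2 scale from ascending to infrarenal (SE 0.29, edgeR adjusted p = 5.65e-05).

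Genes of calcium entry and release, the counterpart of potassium efflux in smooth muscle, had 3 of 23 past the same test. CACNA1H, a T-type calcium channel, had 7.9 to 16.8 CPM in the ascending, 5.99 to 19.0 in the descending, 6.67 to 46.6 in the suprarenal and 52.5 to 106 in the infrarenal libraries, and rose by 2.70 from ascending to infrarenal (SE 0.49, edgeR adjusted p = 0.00519). CACNB3, a calcium channel beta subunit, fell by 0.81 (SE 0.16, adjusted p = 0.00848), and P2RX1 rose by 6.18 (SE 1.07, adjusted p = 0.00383). For the slope, 5 of 23 passed, with TRPC6, a receptor-operated cation channel, also higher (0.36, adjusted p = 0.0241) and RYR3, a calcium release channel, also lower (-0.66, adjusted p = 0.0122). CACNA1C, the L-type pore that potassium channels oppose, had 67.4 to 143 CPM with an adjusted p of 0.986 for any difference.

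Markers of other cells moved with region too, and their part in the results above was not tested. Contractile smooth muscle genes gave 0 of 9 past the test of any difference by edgeR, DESeq2 or limma voom, with 1 at an unadjusted p under 0.05. Pericyte and mural markers gave 3 of 7, MCAM, NOTCH3 and PDGFRB, all higher toward the infrarenal end. The sum of the list, which includes KCNJ8 and ABCC9, was 2020 to 3500 CPM in the ascending and 5620 to 6840 in the descending libraries. It was 1980 to 8430 CPM in the suprarenal and 5250 to 7120 in the infrarenal libraries, so the ascending and infrarenal libraries did not overlap. Mesothelial markers summed to 78.1 to 208 CPM in the ascending, 16.3 to 68.1 in the descending, 15.2 to 26.2 in the suprarenal and 7.7 to 16.2 in the infrarenal libraries, with 1 of 4 tested genes past the test (KRT8). Cardiac muscle markers summed to 301 to 578 CPM in the ascending, 191 to 529 in the descending, 150 to 434 in the suprarenal and 92.8 to 293 in the infrarenal libraries. Of these, 1 of 4 tested genes passed the test (MYH6). The cardiac list includes RYR2, which is also among the calcium release genes above. RYR2 alone had 54.9 to 97.4 CPM in the ascending and 39.2 to 161 in the infrarenal libraries. The medians of the last 2 sums move with region in the direction of KCNG1, KCNA1, KCNAB2 and KCNK6. Single libraries did not all follow. Ascending library 4 had the highest mesothelial sum (208) and the highest KCNAB2 (38.0 CPM), but the lowest ascending KCNA1 (0.302) and KCNK6 (13.1).

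Near the threshold of the rule, KCNB2 and KCNK13 were just inside, each with 5 libraries of at least 10 counts. KCNIP4, KCNJ14, KCNJ6, KCNK7 and KCNK9 were just outside, each with 3 such libraries and 83 to 248 counts in all. The symbols KCNA3 and KCNS2 of the annotation were not analysed here.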

How the data were processed

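RNA extracted from aortic tissue was made into 16 sequencing libraries with a NEBNext Ultra RNA kit, per the labels' protocols, and the authors deposited one table of raw counts per gene. Per the submitters' processing notes, reads were handled with fastp, HISAT2 (version 2.0.5) and featureCounts (version 1.5.0-p3). For the genome build, annotation and strand setting, the entry is: not given in the sources used here. Of 32846 rows, 24609 (74.9%, holding 97.2% of counts) matched a symbol of the RefSeq gene table of the assembly T2T-MFA8v1.1, which served for names and gene neighbours only.

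Groups and library numbers came from the titles. Genes were kept by edgeR's filterByExpr (minimum count 10, minimum total 15), scaled by TMM and fitted with edgeR 4.0.16 (R 4.3.3) in one quasi-likelihood model with a mean per region. The biological coefficient of variation was 0.382, with 12 residual degrees of freedom. Adjusted p-values are Benjamini-Hochberg values over 15926 genes. The fit was tested on simulated data. No pair of libraries of the same region agreed within sampling noise (lowest chi-square per degree of freedom 29.5), and pairs across regions were not checked. With 54 genes and 8 comparisons, the alternatives were DESeq2 1.42.0, limma voom 3.58.1, library totals in place of TMM, no filter, a replicate block and each library left out. Leaving out 3 libraries together was added after the data were seen.

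The genes and lists were chosen with earlier results of these data known. Named genes are KCNA5, KCNAB1, KCNT2, KCNJ8 and KCNMB1, every gene called for any difference, the 5 smallest p among those past each other comparison, and the 3 highest mean CPM per class. KCNA1, KCNK2, KCNK6, KCNJ3 and the other genes outside this rule were named after their values were seen. A few genes of the set are in the counts but are not reported singly or drawn here.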

Additional observations from a re-analysis of the deposited data

Results flagged for a closer look

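In 116 sets of 4 libraries (29 genes in 4 regions), the highest or lowest library was compared with the spread of its region, and 15 stood apart by Dixon's 95% criterion for the gap over the range. Chance gives about 1 in 20, and these sets are not independent of each other.

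Infrarenal library 1 stood apart in 3 genes. KCNA6 had 248 CPM in it (32.7 to 45.0 in the other 3 libraries), KCNJ8 had 111 (39.2 to 49.5) and KCNK17 had 119 (25.4 to 39.6). Suprarenal library 2 stood apart in 3 genes, with 55.4 CPM of KCNH2 (8.82 to 12.5 in the others), 1.29 of KCNB2 (0 to 0.186) and, at the low end, 2.73 of KCNK5 (18.3 to 20.5). Suprarenal library 3 also had 3, with 8.82 CPM of KCNG2 (0.309 to 0.765), 32.6 of KCNN4 (3.4 to 5.64) and, at the low end, 105 of KCNMA1 (409 to 452).

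Single cases were KCNA2 at 4.84 CPM in ascending library 3 (2.32 to 2.59 in the others), KCNJ9 at 14 in ascending library 1 (5.55 to 6.64) and KCNK3 at 47.2, the lowest, in ascending library 4 (86.0 to 93.1). In the descending aorta they were KCNS3 at 3.77 in library 4 (0.607 to 1.08) and KCNB2 at 0.0611 in library 1, which is 1 count against 0 in the others. In the infrarenal aorta KCNJ12 had 21.3 in library 3 (8.67 to 10.8).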

How the results depend on the processing

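Of the 54 genes, 11 passed for any difference with all libraries, 17 with a replicate block, 17 with DESeq2 and 18 without the 3 libraries (ascending 4, suprarenal 3 and infrarenal 1), each of which held all 11. Limma voom called 9, all among the 11, and lost KCNE2 and KCNG1. It called 12 for the slope (11 of them shared), 11 for infrarenal against ascending and 9 for infrarenal against descending, all shared in the last pair of counts. Two-pore-domain genes went from 0 to 3 of 8 for any difference with the block (KCNK2, KCNK3 and KCNK6). With 1 library left out, 9 to 12 of the 54 genes passed for any difference. Over all genes the 322 calls became 532 with the block, 825 with DESeq2, 1128 without the 3 libraries and 213 without infrarenal library 2. The background moved with the member counts in the other comparisons too: slope calls were 3.72% of all genes, 5.51% with the block, 6.47% with DESeq2 and 11.6% without the 3 libraries, and infrarenal against ascending calls 3.49%, 5.29%, 6.34% and 13.2%. Infrarenal against descending had 1.65%, 2.71%, 3.94% and 4.1%. The slope had 13 calls, 21 without the 3 libraries and 11 to 15 with 1 library left out. Infrarenal against ascending had 13, 20 and 9 to 14 in the same order. Infrarenal against descending had 10, and 6 to 11 with 1 library left out, with 6 without descending library 2 or 4. Infrarenal against suprarenal went from 0 to 2 with the replicate block, 2 with library totals alone, 3 without a filter, 7 with DESeq2, 3 without the 3 libraries and 0 to 5 with 1 library left out, the last without suprarenal library 2. In these fits all genes stood at 0.201%, 0.527%, 0.327%, 0.208%, 1.05% and 1.51%, and at 0.321% without suprarenal library 2. Descending against ascending went from 0 to 2 with the block, 2 with DESeq2 and 1 without the 3 libraries (all genes 0.113%, 0.389%, 1.12% and 0.885%). Suprarenal against ascending went from 0 to 1 with the block, 1 without a filter, 3 with DESeq2 and 0 to 1 with 1 library left out (all genes 0.257%, 0.477%, 0.183% and 1.16%, and 0.228% without suprarenal library 1). Suprarenal against descending stayed at 0 in every alternative run. The cause of these moves was not tested.

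Libraries of the same number did not all go together: 19 of 24 same-numbered pairs had a correlation of deviations over 0.1 (range -0.173 to 0.575). Libraries of one number still shared deviations. The median correlation was 0.344 for same-numbered pairs and -0.0947 for other pairs, and 15 of 16 libraries were closest to their own number. The main fit has no term for the number, because the labels do not say what it stands for, and so leaves this sharing out. The replicate block is the alternative that has such a term.

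Slopes that changed sign were near 0 and not called. KCNG2 had -0.16 with the replicate block, -0.07 with limma voom and -0.19 to 0.28 with 1 library left out. KCNIP3 had -0.09 without the 3 libraries and -0.08 to 0.12 with 1 left out, and KCNMB4 had -0.02 with library totals alone and -0.03 to 0.06. With 1 library left out KCNJ9 ran from -0.16 to 0.06, KCNK17 from -0.34 to 0.02, KCNMA1 from -0.09 to 0.01, KCNMB3 from -0.03 to 0.08 and KCNS3 from -0.00 to 0.20. Depth limits KCNB2, KCNJ15 and the other genes of few counts, where a library at 0 cannot be told from one of low level.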

Other observations

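KCNJ6, a pore of G protein-gated inward rectifiers that missed the count rule and was chosen after its values were seen, was counted 69, 98, 76 and 5 times in the ascending libraries and 0 times in the other 12. Against a floor of 3 counts over each group, its ascending level was at least 85.5-fold higher than in the descending, 88.4-fold higher than in the suprarenal and 79.2-fold higher than in the infrarenal aorta. It lies 1 gene away from KCNJ15 in the annotation.

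Some genes followed the library number across regions instead of the region, also noticed after the values were seen. KCNK5 had 2.23 to 5.54 CPM in the 4 libraries numbered 2 and 6.79 to 31.9 in the other 12. KCNK17, its neighbour, had 76.4 to 119 in those numbered 1 and 25.4 to 59.4 in the others, and KCNJ2, a strong inward rectifier, had 2.06 to 5.14 in those numbered 3 and 0.67 to 1.99 in the others. Such patterns were found in 3 of 54 genes (5.56%) and in 727 of all genes tested (4.56%), so they were about as common among genes in general. What the number stands for is not given in the labels.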
